A study of Pteromalus puparum with 9 samples.

Results

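In Pteromalus puparum, a parasitoid wasp whose larvae feed inside butterfly pupae, 87 of 21808 ID stems were abundant in the carcass and nearly absent from the salivary gland. An ID stem is the ID of a transcript model without its isoform number and stands in for a gene, and a trailing x is kept, so that PB.799 and PB.799x count as separate stems. The members were selected on measured values, namely the CPM of each stem, its counts relative to the TMM-scaled size of the library (trimmed mean of M values). A member had a carcass mean of at least 100 CPM, at least 20 CPM in every carcass library, and duct and reservoir means both under 5 CPM. Because of this choice, the difference between carcass and gland is given below as a description, with no test. The same carcass limits were met by 731 stems, of which the members make up 11.9%, and the other 644 serve as the comparison set. The deposited tables pair no ID with a gene name, so the products of the members are not known here.

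RNA from wild-type wasps was sequenced in bulk from 3 sources, the duct and the reservoir of the salivary gland and the carcass, with 3 libraries each, all labelled as batch 1. The labels name no treatment, stage, age or sex, do not define the carcass further, and call the replicates biological without saying whether they were animals, pools or separate rearings, so p-values measure the spread between these libraries. In bulk RNA, fewer cells of a type and less RNA per cell cannot be told apart. Libraries held 18690598 to 22640711 estimated counts, with TMM scaling factors of 0.746 to 0.819 in the reservoir, 0.949 to 1.04 in the duct and 1.08 to 1.63 in the carcass. Where a library had no count of a stem, its level could still reach 0.0909 to 0.210 CPM, depending on the library (3 counts, counting error only).

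In insects, salivary glands are secretory organs: gland cells make proteins that pass into a duct, and a reservoir stores the secretion before release. A dissection that removes the glands leaves a remainder that in general can hold muscle, fat body, gut, nervous tissue and cuticle. Genes used in such tissues and not in secretory cells are commonly low or silent in a gland. Which of these tissues the members belong to is not known, since no marker gene can be identified by name in these tables.

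The 4 limits did not bear equally on the choice. The limit on single carcass libraries removed no stem: the lowest single value of a member was 23.9 CPM, in Ppup127620, followed by 31.7 CPM in PB.2348x. The carcass mean alone kept out 212 stems, and its neighbours were Ppup033050 at 102 and PB.2348x at 102 CPM inside and PB.4455 at 97.8 and PB.6620x at 97.5 CPM outside. The duct limit alone kept out 39 stems, with PB.2253 at 4.54 and MSTRG.2852 at 4.52 CPM inside and a stem of the prefix MSTRGCarcass at 5.03 and PB.6454 at 5.35 CPM outside. The reservoir limit alone kept out 22 stems, with PB.4001x at 4.96 and PB.2125x at 4.91 CPM inside and PB.4094 at 5.02 and MSTRG.1721 at 5.05 CPM outside. Around the limits on the 3 means the values run on without a gap.

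**Figure D1:**
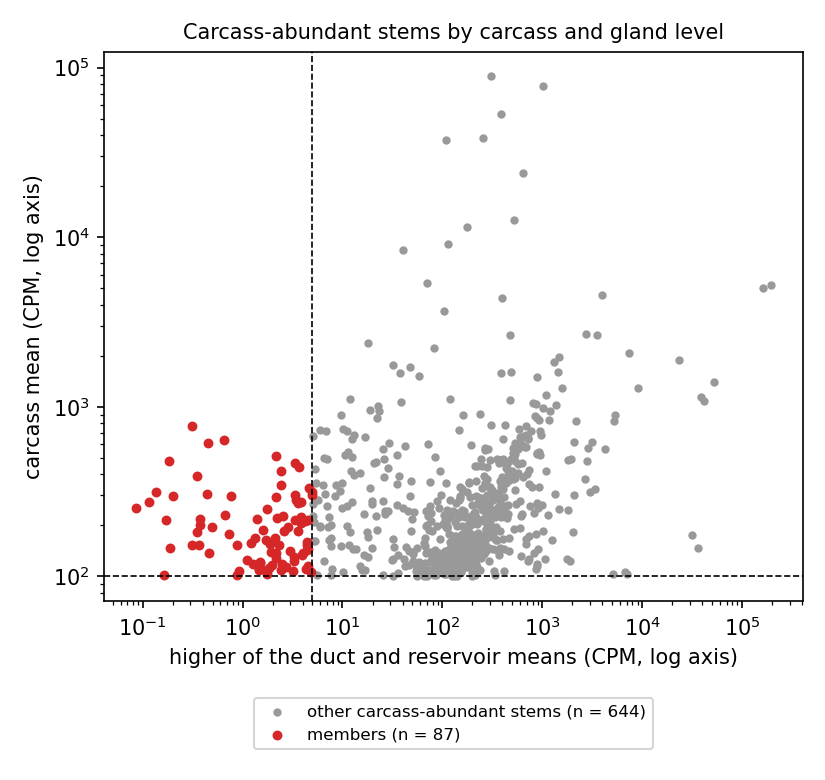
Carcass mean (vertical, CPM, log axis) against the higher of the duct and reservoir means (horizontal, CPM, log axis) for the 731 stems that meet the carcass limits, with the 5 and 100 CPM limits dashed. The 87 members (red) reach at most 767 CPM in the carcass, and the most abundant carcass stems lie among the 644 others (grey).

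Members were moderately abundant in the carcass, with a median of 179 CPM and a range of 102 to 767 CPM. The other carcass-abundant stems had a median of 215 CPM and reached 88630 CPM. Of the members, 50 lay under 200 CPM, 33 between 200 and 478 CPM and 4 between 513 and 767 CPM. Together they held 2.35%, 2.48% and 2.54% of the counts of carcass replicates 1 to 3. The 10 most abundant members made up 26.7% of the members' summed carcass level, so no single stem dominated the set. In TPM, the authors' length-corrected measure, the members held 5.75% ± 1.10 of the carcass total (SD, n = 3).

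By counts the leading member was Ppup111200, a stem of 1 model, with 503, 345 and 1454 CPM in carcass replicates 1 to 3. Its gland libraries stayed between 0.102 and 0.474 CPM. Carcass replicate 3 stands well above the others here, and without it the carcass mean of 767 CPM becomes 424. The next members varied far less between carcass libraries. PB.5855x had 636, 578 and 708 CPM, PB.799x had 547, 605 and 675 CPM, and Ppup172780 had 497, 468 and 575 CPM. PB.799x was almost without gland counts, with 2 counts over the duct libraries and 20 over the reservoir libraries against 51436 over the carcass libraries. Ppup172780 kept more gland signal, at 0.717 to 1.57 CPM in the duct and 0.755 to 2.92 CPM in the reservoir. The fifth, Ppup069600, again leaned on 1 library, with 340, 211 and 883 CPM and a mean of 478 that becomes 276 without carcass replicate 3.

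Per length the order of the members changed. On the TPM scale the leading members were Ppup134240, Ppup134250, PB.5184x, PB.799x and PB.831x, and only PB.799x was also among the 5 highest by counts. Ppup134240 had 4036, 2360 and 11267 TPM in the carcass libraries, and Ppup134250 had 4411, 2677 and 10092 TPM. Both were highest in carcass replicate 3, without which their means of 5888 and 5726 TPM become 3198 and 3544 TPM. PB.5184x had 5102, 7067 and 4391 TPM, PB.799x 2975, 3998 and 3421 TPM, and PB.831x 2405, 4832 and 2337 TPM. By TPM these were highest in carcass replicate 2. By CPM this held for PB.5184x and PB.831x, while PB.799x was highest in carcass replicate 3. All libraries of PB.5184x stood above all libraries of PB.799x, while every other pair of these 5 stems overlapped, so their order is not resolved beyond that. Among all stems of the carcass the members ranked between 66 and 725 by CPM and between 16 and 3625 by TPM.

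**Figure D2:**
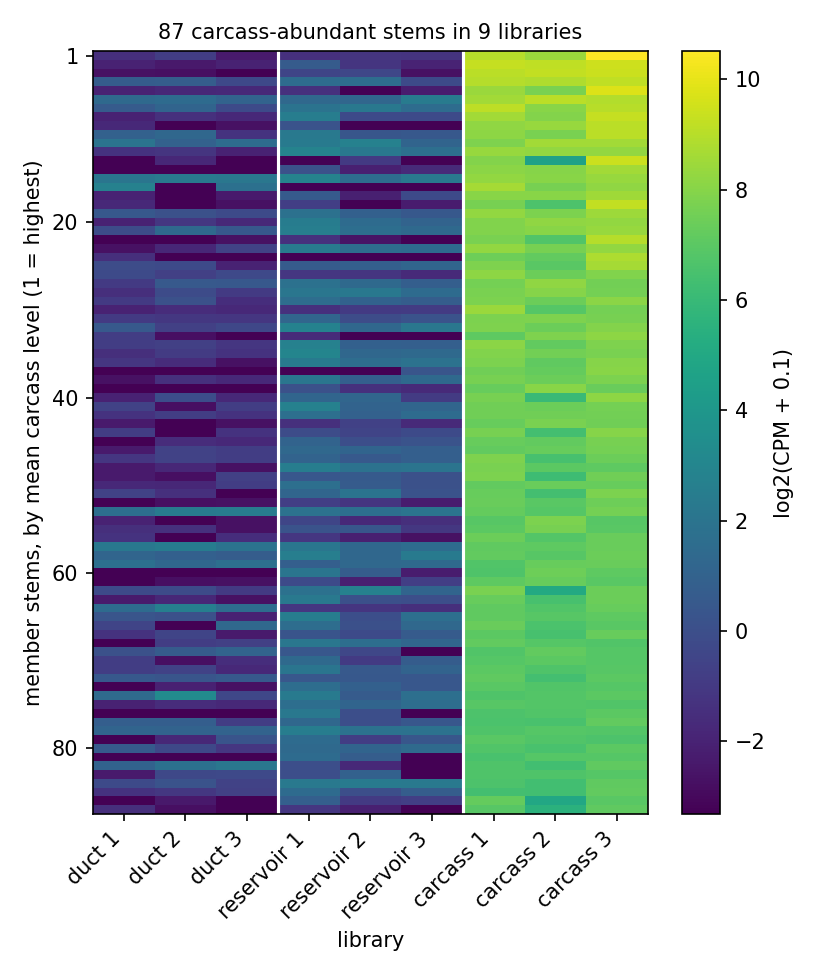
Level of the 87 members (rows, ordered by mean carcass level) in the 9 libraries (columns), as log2(CPM + 0.1). All members are bright (high) in the 3 carcass libraries, and most rows are lighter in the reservoir than in the duct.

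The members' summed level was 69.5, 79.9 and 62.4 CPM in duct replicates 1 to 3, 242, 138 and 132 CPM in reservoir replicates 1 to 3, and 18262, 15218 and 23432 CPM in carcass replicates 1 to 3. The lowest reservoir library thus stood above the highest duct library, and reservoir replicate 1 stood apart from the other 2 reservoir libraries. Relative to the carcass mean, the duct libraries held 0.329% to 0.421% and the reservoir libraries 0.693% to 1.28% of the members' summed level. Since the rule keeps every gland mean under 5 CPM, these sums are small by construction. Their order between duct and reservoir is not fixed by the rule, but its limits acted on both means and can shift it.

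**Figure D3:**
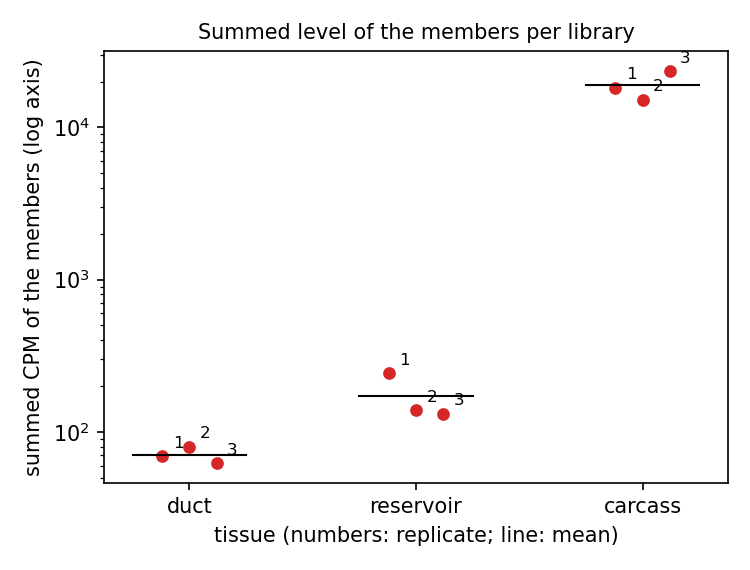
Summed CPM of the members (log axis) in each library, by tissue, with the replicate number beside each point and the mean of 3 libraries as a line. The 3 reservoir libraries, at 132 to 242 CPM, lie above the 3 duct libraries, at 62.4 to 79.9 CPM.

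Traces of most members were still read in the gland. No member was without counts in all 6 gland libraries. All 3 duct libraries held counts of 58 members and all 3 reservoir libraries of 72. In the duct 6 members had no count, and in the reservoir 2, Ppup133050 and PB.8194, named after their values were seen. The median member had 0.331 CPM in the duct and 1.83 CPM in the reservoir, and 65 members in the duct but 30 in the reservoir had a mean under 1 CPM. As a share of its own carcass level, the median member reached 0.194% in the duct (quartiles 0.0534% and 0.459%) and 1.04% in the reservoir (quartiles 0.252% and 1.63%). The highest such share was 3.92% in the duct and 4.50% in the reservoir. Across the 87 members, which share libraries and scaling, the carcass level and the reservoir level had a Spearman rho of -0.04. For the carcass and duct levels it was -0.06. The rule limits both the carcass and the gland means, so these values cannot show whether gland traces follow the carcass level.

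The rule does not fix the direction between reservoir and duct for a member, but it used both means and caps them alike. The duct limit alone kept out 39 stems and the reservoir limit alone 22, so the choice can shift the balance of calls. That balance was different with a gland limit of 10 CPM, as given in the closing sections. The part of the rule in it was not tested. All 87 members passed the filter on low counts, which spans the 9 libraries, but 30 of them would not have passed on the 6 gland libraries alone and entered through the carcass. Of the 87 members, 43 were called higher in the reservoir and 3 lower, by edgeR's quasi-likelihood test at an adjusted p under 0.05 and a fold of at least 2. Members that entered through the carcass make up 10 of those called higher and 1 of those called lower. Over all 12143 tested stems 6.24% were called higher and 10.9% lower. The members stood at 49.4% higher and 3.45% lower, against 7.76% and 20.7% in the comparison set. Every stem of that set has a gland mean of at least 5 CPM, so the rule split it from the members on the means compared here. No conclusion about the members is drawn from that contrast. Among 4907 other tested stems whose gland means were also both under 5 CPM, 264 were called higher and 442 lower, or 5.38% and 9.01%. These stems share the upper limit with the members and were not matched to them in gland level. Reservoir means exceeded duct means in 74 of the members, against 5721 of the 12143 tested stems. All 3 reservoir libraries lay above all 3 duct libraries in 51 members and below them in 3, against 19.9% and 24.6% of all tested stems.

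The median log2 fold change of the members, reservoir minus duct, was 2.08, against -0.03 over all tested stems. Counting means under 3 counts per tissue as 3 counts, the median log2 ratio of the means was 2.02. The direction held under the other scalings. Scaling by library size alone lowered the median of all tested stems by 0.344 and gave a members' median of 1.73. It called 37 members higher and 4 lower, against 502 and 1843 of all tested stems. DESeq2's size factors gave a members' median of 2.15, with 45 members called higher and 2 lower, against 830 and 1260 of all tested stems. Reservoir replicate 1 held the highest gland value of 54 members. With that library left out of the fit, 30 of the same 87 members were called higher and 2 lower. Calls over all tested stems were not counted for that fit. The part of that library in this difference, and of the lower scaling factors of the reservoir libraries, was not tested beyond these values.

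**Figure D4:**
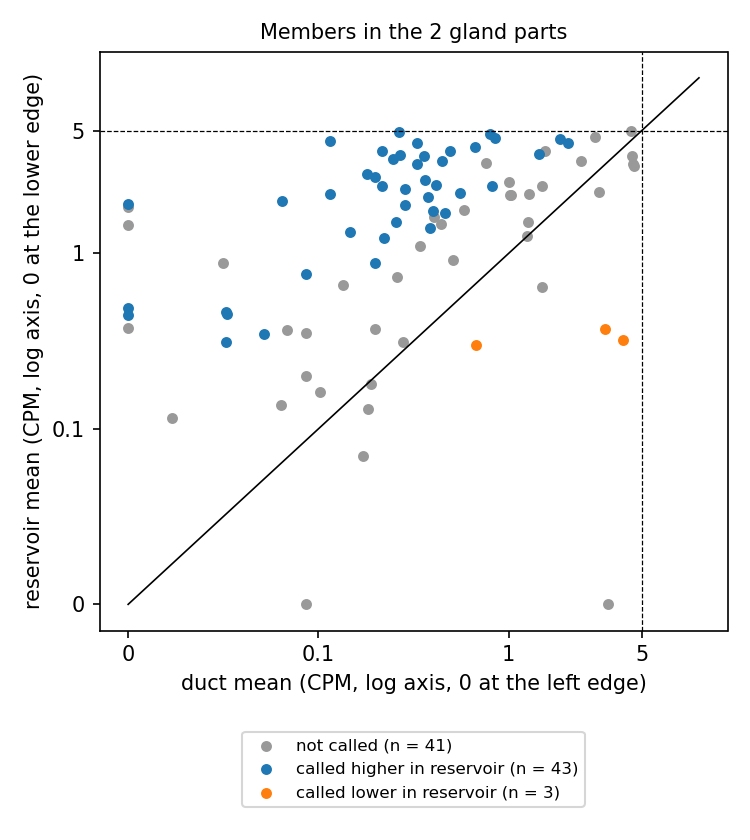
Reservoir mean against duct mean of each member (CPM, log axes, with 0 drawn at the edge), with equality as a line and the 5 CPM limits dashed. The 43 members called higher in the reservoir (blue) lie above the line, and the 3 called lower (orange) lie below it.

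Among the called members the largest fitted rises were those of PB.2561x and PB.831x. PB.2561x, a stem of 5 models, had no duct count, 4.05, 1.56 and 0.108 CPM in reservoir replicates 1 to 3, and 105, 176 and 136 CPM in carcass replicates 1 to 3. Its reservoir mean was at least 38.1-fold higher than the duct (3 counts over the duct group), and at least 16.7-fold without reservoir replicate 1 (edgeR adjusted p = 0.0347 with all libraries). This call was lost in 8 of the 9 fits that left out 1 library, the exception being reservoir replicate 3, at edgeR adjusted p values of 0.0561 to 0.0723. PB.831x, of 1 model, had no duct count either, with 0.978, 0.272 and 0.216 CPM in the reservoir. It was at least 9.77-fold higher, or at least 4.87-fold without reservoir replicate 1 (edgeR adjusted p = 0.0223), and stayed called in all 9 such fits. Neither stem was called with the replicate number as a block. Nor was either called by edgeR's test against a fold of 2, with adjusted p values of 0.0784 for PB.2561x and 0.0511 for PB.831x. The reads behind these values were few, 83 and 22 over the reservoir libraries. Both stems entered the test through the carcass and would not have passed the filter on the gland libraries alone.

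More reads lay behind the rises of 3 members named for their carcass level or evenness. PB.2125x had 0.154 to 0.332 CPM in the duct and 3.18 to 7.06 CPM in the reservoir, which is 4.17 ± 0.37 on the log2 scale (SE, with an edgeR adjusted p = 0.000242). PB.5184x had 0.258 to 0.806 CPM in the duct and 2.80 to 4.48 CPM in the reservoir, a log2 change of 2.94 ± 0.36 (edgeR adjusted p = 0.000991). Ppup086180 had 0.307 to 0.474 CPM in the duct and 1.83 to 3.21 CPM in the reservoir, a log2 change of 2.82 ± 0.26 (edgeR adjusted p = 0.000268). For these 3 stems the reservoir and duct libraries do not overlap, and each stayed called in all 9 fits that left out 1 library. PB.799x was called at a log2 change of 3.50 ± 0.97 (edgeR adjusted p = 0.0325) and lost its call in 5 of those fits, without any 1 duct library or without reservoir replicate 1 or 2 (edgeR adjusted p of 0.0705 to 0.0900). Unlike the 3 stems above, it would not have passed the filter on the gland libraries alone.

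The 3 members called lower in the reservoir were PB.1624, PB.7634 and PB.7343, the last named because the count is small. PB.1624, of 1 model, had 2.74, 6.26 and 2.92 CPM in duct replicates 1 to 3 and 0.349, 0.340 and 0.269 CPM in reservoir replicates 1 to 3, a log2 change of -3.63 ± 0.42 (edgeR adjusted p = 0.000743) that stayed between -3.83 and -3.13 in the fits without 1 library. PB.7634, of 7 models, had 1.91, 3.37 and 4.35 CPM in the duct and 0.908, 0.204 and 0 CPM in the reservoir, a log2 change of -3.19 ± 0.77 (edgeR adjusted p = 0.0184). Its call was lost without duct replicate 3 (edgeR adjusted p = 0.0595) or reservoir replicate 2 (edgeR adjusted p = 0.0779), and its log2 fold change was -4.93 to -2.40 over the 9 fits. PB.7343 had 0.522 to 0.775 CPM in the duct and 0.216 to 0.349 CPM in the reservoir, a log2 change of -1.16 ± 0.35 (edgeR adjusted p = 0.0452). It entered the test through the carcass and would not have passed the filter on the gland libraries alone. In these 3 stems every duct library stood above every reservoir library.

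Of the 5 most abundant members by counts, 4 did not pass this test. Their log2 fold changes were 0.16 ± 0.85 for Ppup111200, 2.20 ± 0.79 for PB.5855x, 0.75 ± 0.49 for Ppup172780 and -0.51 ± 1.12 for Ppup069600 (edgeR adjusted p = 0.924, 0.0806, 0.319 and 0.792).

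The members also varied among themselves in how evenly the 3 carcass libraries held them. The coefficient of variation over these libraries had a median of 23.3%, against 17.6% in the comparison set, and exceeded 50% in 12.6% of members and 8.23% of the others. Members were highest in carcass replicate 3 in 50 cases and lowest in carcass replicate 2 in 57, or 57.5% and 65.5% of them, where the comparison set gave 44.1% and 51.9%. Carcass replicate 2 had the highest TMM factor of all libraries, 1.63. As a share of unscaled counts the members together held 2.35%, 2.48% and 2.54% in carcass replicates 1 to 3, so replicate 2 was not the lowest by that measure. Without carcass replicate 2 the median coefficient fell to 13.7% for the members and 11.3% for the others. No test was made of this difference, since stems of 1 library are not replicates.

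**Figure D5:**
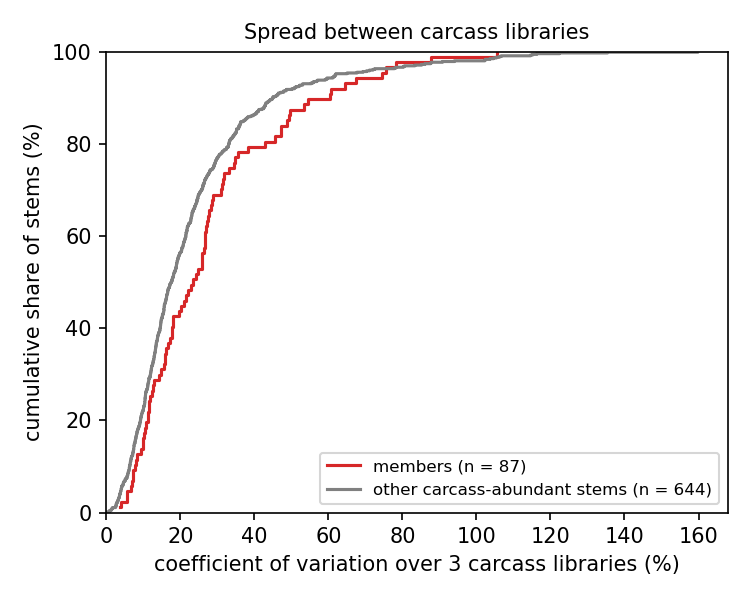
Cumulative share of stems (vertical, %) against the coefficient of variation over the 3 carcass libraries (horizontal, %) for the 87 members (red) and the 644 other carcass-abundant stems (grey). The members' curve lies to the right over most of the range, with medians of 23.3% and 17.6%.

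The least even members were Ppup127620 and Ppup134240. Ppup127620 had 242, 23.9 and 676 CPM in carcass replicates 1 to 3, a 28.3-fold range, and its mean of 314 CPM becomes 133 without carcass replicate 3. Ppup134240 had 200, 99.4 and 592 CPM, and its mean of 297 CPM becomes 150 without that library. The most even members were Ppup086180, with 183, 179 and 192 CPM, and PB.2125x, with 330, 307 and 312 CPM, whose libraries all lay within 1.08-fold of each other.

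The prefix of an ID, whose meaning no source used here gives, went along with these properties. Members carried the prefix PB in 45 cases, PB with a trailing x in 24, MSTRG in 9 and Ppup in 9. In the comparison set the same shares were 76.1%, 17.5%, 2.95% and 2.80%, against 51.7%, 27.6%, 10.3% and 10.3% of the members. Over all 21808 stems they were 36.9%, 16.2%, 8.39% and 37.9%, so the members' share of Ppup stems lay above that of the comparison set and below that of all stems, and their share of MSTRG stems was close to that of all stems. The 9 Ppup members had the highest median carcass level, 300.4 CPM, and a median coefficient of variation of 74.6%, against 21.0% for PB, 25.9% for PB with x and 21.5% for MSTRG. Carcass replicate 3 was the highest carcass library in 8 of the 9 Ppup members and in 29 of the 45 PB members. Ppup members also had a low median in the reservoir, 0.162 CPM, where the other classes had 1.76 to 2.09 CPM. In the duct the medians lay closer, at 0.183 CPM for Ppup and 0.286 to 0.378 CPM for the others. Not all Ppup members were low: Ppup133050 had 6.66, 0 and 3.33 CPM in duct replicates 1 to 3. Ppup172780 and Ppup086180 had reservoir means of 2.18 and 2.62 CPM. Among Ppup members only Ppup086180 was called higher in the reservoir, against 7 of the 9 MSTRG, 24 of the 45 PB and 11 of the 24 PB members with x. Of 57 members with a reservoir mean of at least 1 CPM 35 were called higher, and 8 of 30 under it, where 7 of the 9 Ppup members lay. The reservoir mean is itself a side of the comparison called, so this split cannot show that calls depend on level. Calls over all stems of each prefix were not counted, and the parts of prefix and level were not tested.

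The rule did not use the isoform makeup of the members. In all, the 87 stems comprised 213 transcript models, where all 21808 stems comprised 40026. A single model was found in 51 members, 58.6%, against 39.1% in the comparison set. Among the 36 members with 2 to 18 models, the same model led in all 3 carcass libraries in 33, or 91.7%, against 87.2% of such stems in the comparison set. The leading model took a median of 79.04% of the stem's carcass counts in the members and 78.95% in the comparison set. PB.799.2x took 98.8%, 98.9% and 98.0% of the counts of PB.799x, and PB.5855.5x took 96.2%, 95.7% and 96.5% of those of PB.5855x. The 3 members whose leading model changed were PB.6545, PB.5689x and PB.404, the last named because the count is small. In PB.6545, of 16 models, PB.6545.3 held 46.9%, 8.85% and 31.1% of the counts of carcass replicates 1 to 3, and PB.6545.7 led in replicate 2. In PB.5689x, of 5 models, PB.5689.2x held 85.7%, 36.2% and 86.3%, and PB.5689.1x led in replicate 2. In PB.404 the shares of PB.404.1 were 59.8%, 74.4% and 36.8%, with PB.404.5 ahead in replicate 3. Isoforms of a stem can share reads, so these shares can depend on how the authors' quantification divided them.

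Dividing each model's count by its TPM gives its effective length relative to other models of the library. For the leading model of each stem, expressed relative to the median model, the members had a median of 0.642 and quartiles of 0.304 and 1.44, and the comparison set a median of 0.705 and quartiles of 0.377 and 1.10. The members spanned 0.0286 to 5.40 and the comparison set 0.0303 to 6.41. Among members of a single model, those leading by TPM had the smallest ratios of counts to TPM, and a TPM of such a model rests on a small effective length.

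Many members had a counterpart stem whose ID differs only by the trailing x. Such a counterpart existed for 47 members, all 24 with an x and 23 without, and none of the counterparts was itself a member. In 25 of the 47 the counterpart reached 5 CPM in the duct or the reservoir, and in 6 of them 100 CPM. For PB.5855x, at 641 CPM in the carcass, PB.5855 had 82.9 CPM in the carcass, 82.8 CPM in the duct and 87.2 CPM in the reservoir. For PB.5184x, at 223 CPM in the carcass, PB.5184 had 62.4, 74.98 and 62.0 CPM in carcass, duct and reservoir. For PB.2125x, PB.2125 had 38.7, 34.7 and 50.8 CPM. Low gland signal of an x stem therefore did not extend to the stem without x in these cases. With stems joined across the x, 58 of the 87 members remained members and 29 did not, and no further stem joined. No source used here says whether a stem and its counterpart share a locus.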

How the data were processed

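RNA was extracted with TRIzol and strand-specific libraries were sequenced as Illumina read pairs, per the labels' protocols. Salmon 1.9 is the tool listed per the submitters' processing notes. No source used here names the reference transcripts or the genome build. In the deposited tables the authors give estimated counts per transcript model as whole numbers, not normalized (rounding changed 0 of them), and TPM. For reservoir replicate 2 the deposited TPM values total 2000000. They match duct replicate 3 plus reservoir replicate 1 in 99.955% of models (tolerance 2e-06), so this column, as deposited by the authors, was treated as a score without unit and left out.

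Counts were summed per stem in R 4.3.3 and analysed with edgeR 4.0.16: filterByExpr (12143 of 21808 stems kept), TMM, and quasi-likelihood F tests of tissue means fitted over all 9 libraries, adjusted after Benjamini-Hochberg over all tested stems. Standard errors were derived from the F statistic. No pair of replicates agreed within sampling noise (chi-square per degree of freedom of 41.4 to 265). Functions were tested on simulated data. DESeq2 1.42.0 and other settings were alternatives. Figures were drawn with matplotlib 3.10.9.

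Named stems are the 5 members highest in the carcass by CPM and by TPM, the 2 most and 2 least even over carcass libraries, the 2 called members that rose and fell most, the neighbours of each limit, and the 2 members with most models among those whose leading model changed. The members, lists and tests were chosen with earlier results of these data known. Lists by gene description were not run, since no source used here pairs the IDs with descriptions.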

Additional observations from a re-analysis of the deposited data

How the results depend on the processing

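Between reservoir and duct 46 of the 87 members were called, and 33 of the 87 with the replicate number as a block (31 higher, 2 lower). The labels do not say whether same-numbered libraries are paired. Deviations of same-numbered libraries of 2 tissues correlated at -0.103 to 0.128, and those of differently numbered ones at -0.113 to 0.104. With 3 libraries per tissue these values cannot decide whether the samples were paired. PB.799x, PB.831x, PB.2561x and PB.7634 were not called with the block (edgeR adjusted p of 0.0702, 0.0595, 0.0888 and 0.0522) nor by the test against a fold of 2, which called 23 members (22 and 1). DESeq2's Wald test called 57 (54 and 3). Leaving out 1 library gave 31 to 47 calls. For these tests and fits, calls over all tested stems were not counted. The number of members was 82 to 94 without 1 library, their share of carcass counts 2.28% to 2.80% against 2.46%, and their median carcass coefficient of variation 14.6% to 25.3%, the lowest without carcass replicate 2. Scaling by library size gave 117 members with a share of 3.02%, and moved the members' median log2 fold change to -9.40 for duct minus carcass and from -6.57 to -7.32 for reservoir minus carcass. Joining stems across the x gave a share of 1.59%, 30 calls among 58 members (28 higher, 2 lower) and 21 of 23 stems with a constant leading model. Calls over all joined stems were not counted. A gland limit of 2 CPM gave 44 members, 1.24% and 18 calls, and one of 10 CPM 122 members and 3.84%, with 51 called higher and 15 lower. A carcass minimum of 50 CPM gave 164 members, 3.14% and 79 calls, and one of 200 CPM 37 members, 1.55% and 16 calls. Calls under these other gland and carcass limits came from the main fit, which called 6.24% of all tested stems higher and 10.9% lower. Applying the limits to TPM gave 117 members, 55 of them shared, with 2.82% of carcass counts. The median relative length was 0.658 with at least 100 counts per model. In 4 named stems that no setting called, the log2 fold change between reservoir and duct changed sign: Ppup111200 stood at -0.17 with library size alone and at -0.20 to 0.79 without 1 library, Ppup134240 at -0.33 to 2.70, Ppup069600 at -1.41 to 0.15 and Ppup127620 at -3.66 to 4.53. These 4 stems had 4 to 17 counts in each gland tissue. Of the remaining alternatives for named stems, 23 lost and 3 gained a call. The causes of these changes were not tested.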

Other observations

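A set of 8 members formed 4 pairs with neighbouring numbers in their IDs, a pattern noticed in these data and given as a description. Ppup134240 and Ppup134250 differ by 10, the smallest and most frequent step between Ppup numbers (6032 of 8273 steps). Their carcass levels ran in parallel, at 200, 99.4 and 592 CPM in replicates 1 to 3 for Ppup134240 and at 208, 107 and 505 CPM for Ppup134250, and both were nearly absent from the reservoir, at 0.199 and 0.116 CPM. The other pairs ran less alike. PB.5184x had 215, 255 and 199 CPM and PB.5185x 301, 332 and 538 CPM, PB.5084 had 220, 170 and 273 CPM and PB.5085 278, 256 and 382 CPM, and PB.159 had 229, 127 and 398 CPM and PB.160 220, 75.2 and 179 CPM. Near-identical copies can share reads, and whether the stems of a pair do was not tested.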
